A study of Mus musculus with 16 samples.

Results

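Parvalbumin and 8 further calcium-binding proteins and calcium sensors were followed in single neurons of mouse dorsal root ganglia (DRG). The 9 genes were taken by name, from a list drawn up with earlier results of these data known, and all 9 were found among the 49671 gene rows of the count tables: *Pvalb*, *S100b*, *Pcp4*, *Hpca*, *Hpcal1*, *Hpcal4*, *Ncald*, *Vsnl1* and *Necab2*. The study looked for molecular differences between proprioceptors that innervate back, abdominal and hindlimb muscles, and made CEL-Seq2 libraries (single cells in plate wells, with molecules counted by unique molecular identifiers, UMIs) at embryonic day (e) 15.5 and at postnatal day (p) 1.

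Each library held 96 wells, with 10 libraries at e15.5 (960 wells) and 6 at p1 (576 wells), from thoracic and lumbar ganglia. At e15.5 the cells came from PvtdTom embryos, in which a bacterial artificial chromosome transgene places tdTomato under the *Pvalb* promoter, and were collected by fluorescence-activated cell sorting. At p1 they came from 3 genotypes, PvCre; Ai14, Trpv1Cre-Basbaum; PvFlp; Ai65 and Trpv1Cre-Hoon; PvFlp; Ai65, the last 2 of which differ in the Trpv1Cre driver and share a name in the labels. No label used here ties a p1 library to a genotype. In Trpv1Cre; PvFlp; Ai65 mice the tdTomato reporter needs both recombinases and marks cells with a history of *Trpv1* and *Pvalb* expression, and in PvCre; Ai14 mice it needs *Pvalb*-driven Cre alone. The methods describe picking by hand at p1, whereas the labels give sorting. Cells of both ages were thus chosen through the *Pvalb* promoter, so the *Pvalb* level is described below with no test. Age, mouse line and way of collection cannot be told apart. No source used here ties a library to animals, so the p-values measure the spread between libraries.

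Most of these proteins bind calcium through EF-hand loops, a helix-loop-helix fold. Parvalbumin is a cytosolic buffer that shortens calcium transients in fast-firing neurons and in muscle, and it is the classical marker of proprioceptive afferents. Hippocalcin (*Hpca*), the hippocalcin-like proteins (*Hpcal1*, *Hpcal4*), neurocalcin delta (*Ncald*) and visinin-like 1 (*Vsnl1*) are neuronal calcium sensors whose myristoyl group is exposed on calcium binding, so that they move to membranes. S100B, known from glia and from large-diameter sensory neurons, works as a dimer, and NECAB2 is an adaptor with EF-hands that binds receptors. PCP4 (PEP-19) differs from the others: it has an IQ motif, no EF-hand, and changes how fast calmodulin takes up and releases calcium.

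In GRCm38, *Pvalb* lies at chr15:78191114-78206400, *Ncald* at chr15:37366175-37792570, *S100b* at chr10:76253853-76261159, *Pcp4* at chr16:96467606-96525793, *Hpca* at chr4:129111570-129122036, *Hpcal4* at chr4:123183227-123194701, *Hpcal1* at chr12:17690856-17791933, *Vsnl1* at chr12:11325242-11436613 and *Necab2* at chr8:119446719-119472640. All are protein-coding. *Pcp4* shares its strand with the overlapping gene *Igsf5*, and 37.0% of the 40-base words at its transcript ends also occur in *Igsf5* transcripts. In the counts *Igsf5* itself held 4 UMIs at e15.5 and 32 at p1 in proprioceptor-like wells, against 10302 and 26917 for *Pcp4*. At the ends of *Hpcal1* transcripts 15.6% of such words occur in other genes, so part of its reads could have been assigned elsewhere.

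RefSeq promoter windows (300 bases, from 250 before to 50 after a transcript start, GRCm38.p6, read along the gene) were at hand for 8 members, *Ncald* being the one without. One window each of *Pvalb*, whose promoter drove the reporters, and of the 3 members with the largest rise between the ages, is shown 5′ to 3′. *Pvalb* and *Vsnl1* have 2 windows each, and the one printed is the one that holds ETS letters, which the other lacks. Capitals mark the ETS letters CCGGAA (as TTCCGGAA in *Vsnl1*, where the matches on both strands overlap), the core read by the family of the proprioceptor factor ETV1. All other letters are in lower case.
Pvalb, minus strand, chr15:78206351-78206650: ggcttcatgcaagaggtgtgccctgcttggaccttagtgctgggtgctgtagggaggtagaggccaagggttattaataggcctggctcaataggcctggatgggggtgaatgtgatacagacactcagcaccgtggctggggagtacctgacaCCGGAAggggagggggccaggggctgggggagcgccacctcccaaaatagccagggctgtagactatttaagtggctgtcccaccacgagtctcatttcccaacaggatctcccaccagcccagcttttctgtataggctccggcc
S100b, plus strand, chr10:76253586-76253885: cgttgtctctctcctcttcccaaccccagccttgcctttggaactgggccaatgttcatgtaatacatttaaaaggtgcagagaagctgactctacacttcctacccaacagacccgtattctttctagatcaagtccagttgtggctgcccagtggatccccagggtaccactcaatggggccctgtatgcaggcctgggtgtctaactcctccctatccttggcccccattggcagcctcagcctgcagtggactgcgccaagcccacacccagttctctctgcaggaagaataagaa
Pcp4, plus strand, chr16:96467356-96467655: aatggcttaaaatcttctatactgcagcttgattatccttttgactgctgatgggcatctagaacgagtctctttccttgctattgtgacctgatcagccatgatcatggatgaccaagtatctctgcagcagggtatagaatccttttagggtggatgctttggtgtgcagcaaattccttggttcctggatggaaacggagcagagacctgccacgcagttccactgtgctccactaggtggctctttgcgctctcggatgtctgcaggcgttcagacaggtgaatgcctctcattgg
Vsnl1, minus strand, chr12:11435602-11435901: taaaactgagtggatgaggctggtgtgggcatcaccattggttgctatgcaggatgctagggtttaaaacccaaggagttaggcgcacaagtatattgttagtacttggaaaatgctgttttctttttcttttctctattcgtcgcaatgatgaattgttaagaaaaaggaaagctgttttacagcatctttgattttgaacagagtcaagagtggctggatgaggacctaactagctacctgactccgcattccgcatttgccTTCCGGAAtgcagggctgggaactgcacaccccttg
The ETS match lies 96 bases before the *Pvalb* start, and in *Vsnl1* the matches begin 15 and 17 bases into the transcript. Searched on both strands, CCGGAA occurred in 2 of the members' 12 windows and the RUNX letters TGTGGT in 1, that of *Hpcal4*, 149 bases before the start. TGACGT, from the cAMP response element, and TATAAA occurred in none. Over all 32544 promoter windows the shares were 14.98% for CCGGAA, 16.7% for TGTGGT, 7.55% for TGACGT and 13.6% for TATAAA. GC content was 58.3% in the *Pvalb* window, 53.7% in that of *S100b*, 48.7% in that of *Pcp4* and 44.3% in that of *Vsnl1* (67.7% and 58.7% in the windows of *Pvalb* and *Vsnl1* not shown), against a median of 53.0%.

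Of 1536 wells, 1240 had at least 10000 UMIs and were kept, 871 at e15.5 and 369 at p1. Wells were named from markers other than the 9 genes. Proprioceptor-like wells had at least 1000 CPM (UMIs per 1000000 UMIs of a well or sum) of *Runx3*, *Etv1* and *Ntrk3* together and at least 300 of *Avil* and *Isl1*, with collagen transcripts under 1000. Those with at least 300 CPM of a glial list (*Apoe*, *Fabp7* and others) were kept apart as wells with glial transcripts. This gave 270 proprioceptor-like wells at e15.5 (6 to 65 per library) and 232 at p1 (5 to 63 per library), besides 46 and 57 with glial transcripts, 35 and 7 other sensory neuron-like wells, and 406 connective tissue-like wells at e15.5. At p1, 55 of the 72 wells of no class met the proprioceptor limit and missed the sensory neuron limit. The neuronal check genes (*Tubb3*, *Prph*, *Snap25*) stood at 4246 CPM in proprioceptor-like wells at e15.5 and 3663 at p1, and the connective tissue check genes at 3.0 and 4.95 CPM. Proprioceptor-like wells had a median of 119932 UMIs at e15.5 and 65314.5 at p1, and the p1 library S3 had only 12 wells over the limit.

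Between e15.5 and p1 the set moved in opposite directions within proprioceptor-like wells. *S100b*, *Pcp4*, *Vsnl1* and *Ncald* rose, and *Hpca*, *Necab2* and *Hpcal1* fell. The change was largest for *S100b*, from near 0 in most libraries to at least 182 CPM in every library, and *Hpcal4* was too rare to be tested. UMIs were summed per library over proprioceptor-like wells and the ages compared with edgeR's quasi-likelihood test, with p-values adjusted by Benjamini-Hochberg over 12576 genes. Of the 7 members tested 4 rose and 3 fell, where 61.4% of all tested genes were called (30.0% higher, 31.4% lower at p1). The median log2 fold change of these 7 was 1.73 and that of all tested genes -0.03. Calls were thus common among all genes, and the sizes are given for each member.

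*Pvalb* itself stood at 399 CPM in the lowest e15.5 library, 485 in the median and 547 in the highest, and at p1 at 692, 831 and 1084. The lowest p1 library lay above the highest at e15.5, and the fitted log2 difference was 1.07 (2.10-fold). It was found in 99.3% and 99.6% of wells.

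*S100b* measured 0 CPM in the lowest e15.5 library, 2.98 in the median and 45.0 in the highest, against 182, 336 and 693 at p1. The ages did not overlap, and the log2 fold change was 5.47 (SE 0.54, 16 libraries, edgeR adjusted p = 3.61e-08). Leaving out 1 library moved it between 5.23 and 6.77, the latter without S10 of e15.5. UMIs of it were found in 21.5% of wells at e15.5 and 96.1% at p1, and with each well thinned to 10000 UMIs in 3.70% and 79.7%. At p1 the libraries spread in steps: S4 and S1 held 182 and 190 CPM, S3 and S6 held 330.1 and 343, and S5 and S2 held 692 and 693.

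*Pcp4* ran from 73.5 over 331 to 535 CPM (lowest, median and highest library) at e15.5 and from 939 over 1558 to 1820 at p1. No library overlapped, with a log2 fold change of 2.38 (SE 0.27, adjusted p = 2.78e-07 in edgeR). Every p1 well of the class had a UMI of it, also after thinning.

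For *Vsnl1*, a sensor of the visinin-like branch, library levels were 36.1 (lowest), 54.6 (median) and 104 (highest) CPM at e15.5 and 218, 279.6 and 380.1 at p1. For *Ncald* they were 96.1, 125 and 156 CPM at e15.5 and 289.5, 334 and 520.1 at p1. Both sensors rose without overlap, *Vsnl1* by a log2 fold change of 2.36 (SE 0.20, edgeR adjusted p = 3.77e-09) and *Ncald* by 1.73 (SE 0.13, edgeR adjusted p = 4.40e-10).

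The other 2 sensors that could be tested went down. *Hpcal1* stood at 283, 308 and 399 CPM in the lowest, median and highest e15.5 library and at 107, 138 and 230.1 at p1, again without overlap (log2 fold change -0.94, SE 0.11, edgeR adjusted p = 5.25e-07). *Hpca* was low throughout, at 8.32, 19.4 and 35.5 CPM at e15.5 and 1.45, 5.26 and 10.003 at p1. *Hpca* was the 1 tested member whose ages overlapped (log2 fold change -1.81, SE 0.28, edgeR adjusted p = 1.08e-05). That overlap came from 1 UMI in the 5 wells of p1 library S3, and the next p1 library, S5, stood at 6.45 CPM. *Necab2* fell from 55.3, 62.8 and 91.8 CPM to 10.003, 16.6 and 21.7, a log2 fold change of -1.65 (SE 0.14, edgeR adjusted p = 6.37e-09). *Hpcal4*, with 83 UMIs at e15.5 and 37 at p1 in the class, stood at 2.57 and 1.91 CPM pooled over wells.

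Over all tested genes, the library ranges of the ages did not overlap for 25.1% (6.31% with p1 higher, 18.8% with p1 lower). Of the 7 tested members 6 were free of overlap, as was *Pvalb*. All 7 calls and directions held when any 1 of the 16 libraries was left out, the 5-well library S3 of p1 included, and without the sensory neuron limit. Wells were shallower at p1 (library medians of 12244 to 87797 UMIs, against 70455 to 174058) and had more mitochondrial UMIs (9.12% to 12.5%, against 2.22% to 6.13%). With every well thinned to 10000 UMIs, 6 members could be tested and all 6 were called in the same direction, *Hpca* being left out. The part of RNA quality in these differences was not tested.

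**Figure D1:**
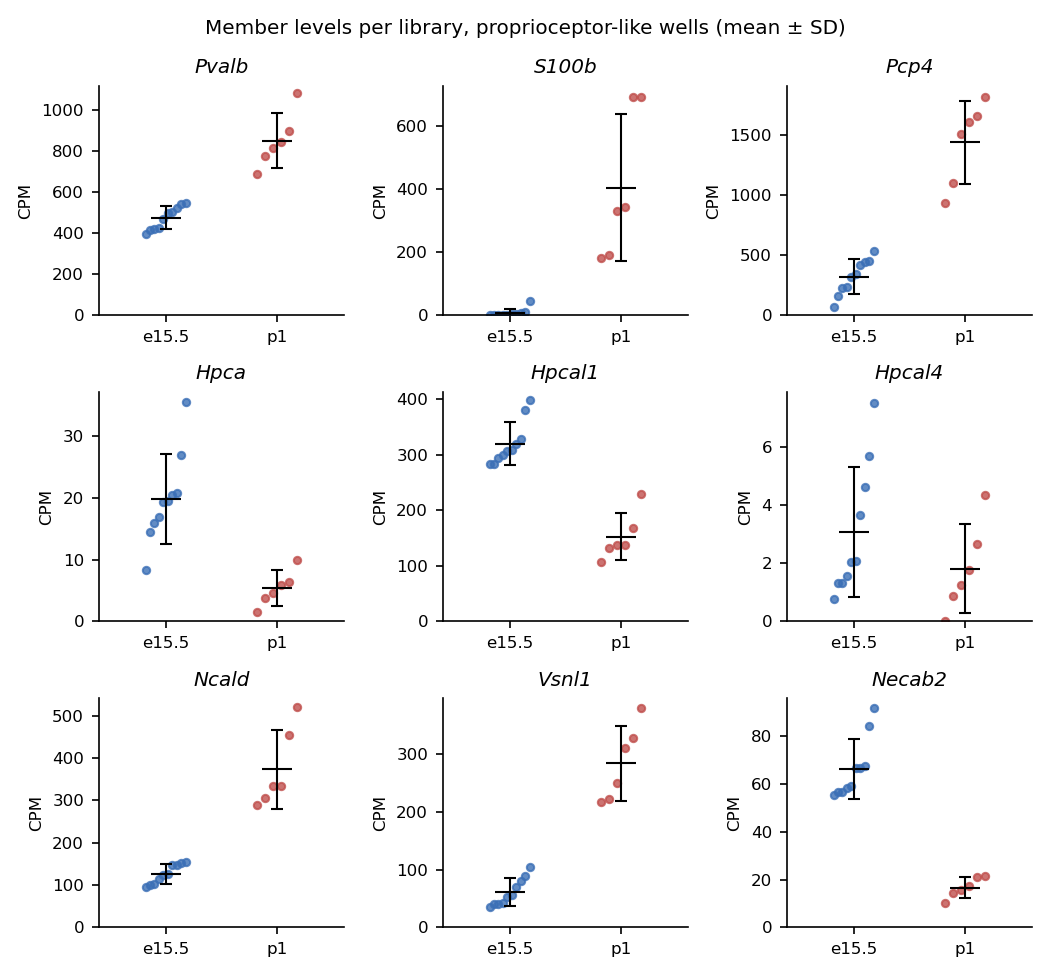
Level of each of the 9 genes in CPM (vertical axis, from 0) in proprioceptor-like wells, 1 point per library at e15.5 (10 libraries) and p1 (6 libraries), with black bars for mean ± SD. The p1 points of *S100b* (182 to 693 CPM) and *Pcp4* (939 to 1820 CPM) lie above every e15.5 point, and those of *Hpcal1* and *Necab2* below.

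A wider list of 32 calcium-binding genes had 16 members at testable levels: 9 rose, 5 fell and 2 did not pass, beside 30.0% of all tested genes higher and 31.4% lower. Their median log2 fold change was 0.40, and that of all genes -0.03. Among the neuronal calcium sensors outside the 9 genes, the potassium channel partners were split, with 3 of 5 tested sensors up and 2 down. *Kcnip3* rose by 2.01 (log2, SE 0.34, edgeR adjusted p = 3.46e-05) and *Kcnip4* by 1.16 (SE 0.43, edgeR adjusted p = 0.0234), whereas *Kcnip1* fell by 2.67 (SE 0.38, edgeR adjusted p = 4.11e-06) and *Kcnip2* by 0.87 (SE 0.14, edgeR adjusted p = 1.98e-05). *Calm3*, a gene of the general calcium sensor calmodulin, rose by 1.35 (SE 0.10, edgeR adjusted p = 3.55e-10). *Cabp1*, *Caln1* and *Necab1*, sensors and adaptors with EF-hands, rose by 0.89, 0.91 and 0.98, with edgeR adjusted p of 2.80e-06, 0.0453 and 0.0305. Both S100 genes tested besides *S100b* fell, and the larger fall was that of *S100a11*, by 2.29 (SE 0.26, edgeR adjusted p = 1.76e-07).

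The e15.5 sort also held cells that were not proprioceptors, and these gave a comparison within the same libraries. Against connective tissue-like wells 6 of the 7 tested members were higher in proprioceptor-like wells, and *S100b* alone was lower. Against other sensory neuron-like wells only *Pcp4* and *Vsnl1* were higher and *S100b* was lower, while *Hpcal1* and *Ncald* did not pass. The fit had the library as a block and 14149 genes. It called 78.6% of genes against connective tissue-like wells (36.7% higher, 42.0% lower) and 13.1% against other sensory neuron-like wells (6.93% higher, 6.15% lower).

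Connective tissue-like wells, in 9 libraries with at least 5 of them, held 13.2 ± 4.41 CPM of *Pvalb* (SD over libraries, n = 9), with a UMI in 28.6% of wells. Proprioceptor-like wells held 475.8 ± 55.3 (n = 10), so the marker of the sort is 35.1-fold higher there in the fit. The share in connective tissue-like wells, at a median of 27511.5 UMIs, is the background to set beside shares of wells with a UMI. *Pcp4*, the calmodulin regulator, stood at 13.1 ± 9.10 CPM in connective tissue-like wells (n = 9) and 321 ± 145 in proprioceptor-like wells (n = 10), with a log2 fold change of 4.80 (SE 0.18, edgeR adjusted p = 6.28e-16). The sensors followed with log2 fold changes of 3.70 (*Vsnl1*, 4.79 with at least 10 wells per sum), 2.50 (*Hpcal1*), 2.12 (*Ncald*) and 1.98 (*Hpca*), and *Necab2* with 3.59. Their edgeR adjusted p ranged from 1.52e-15 for *Hpcal1* to 5.94e-07 for *Hpca*. *S100b* ran the other way, at 24.9 ± 11.5 CPM in connective tissue-like wells (n = 9) and 7.96 ± 13.5 in proprioceptor-like wells (n = 10), with a log2 fold change of -2.28 (SE 0.73, edgeR adjusted p = 0.00750). Without the library block that p is 0.0502. The glial list stood at 36.7 to 686 CPM in the libraries of connective tissue-like wells and at 7.59 to 19.7 in those of proprioceptor-like wells, and its part in the *S100b* level was not tested.

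Other sensory neuron-like wells were few, 35 over 8 libraries, with at least 5 in 3 of these. *Vsnl1* held 1.52, 7.59 and 9.76 CPM there, below all 10 proprioceptor-like libraries (36.1 to 104), with a log2 fold change of 3.32 (SE 0.54, edgeR adjusted p = 1.86e-04). Its adjusted p was 0.0769 under the study's quantile filters. A limit of at least 10 wells per sum left only library S1 (11 wells) among these other neurons. *Pcp4* held 61.0, 132 and 181 CPM against 73.5 to 535, and although these ranges overlap it was higher in proprioceptor-like wells within libraries (log2 fold change 1.59, SE 0.22, edgeR adjusted p = 3.25e-05). *Hpcal1* was level, at 304, 332.6 and 332.7 CPM against 283 to 399 (log2 fold change -0.10, 95% interval -0.36 to 0.17, edgeR adjusted p = 0.737). For *Ncald* the difference was 0.01 with an interval of -0.51 to 0.52. With at least 10 wells per sum, where S1 was the only library of other neurons, it was -0.76. Under the quantile filters it was -0.74 (adjusted p = 0.270). Without 1 library it was -0.49 to 0.46, lowest without S9 and highest without S1. The level of *Ncald* in the 2 kinds of neuron was thus not resolved. *Hpca* (log2 fold change -0.92, SE 0.33, edgeR adjusted p = 0.0752) and *Necab2* (0.65, SE 0.27, edgeR adjusted p = 0.126) did not pass. With classes taken from clusters instead, both passed, at adjusted p of 0.0242 and 0.00218.

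*S100b* was 24.3, 96.1 and 397 CPM in these 3 libraries of other neurons, and lower by 4.97 (log2, SE 0.97, edgeR adjusted p = 0.00118) in proprioceptor-like wells. Without library S3 the difference was -5.69, without S9 -3.68 at an adjusted p of 0.0576, and under the study's quantile filters -4.68 at 0.134. The other neurons were not uniform. In 18 of the 35 wells a mechanoreceptor list (*Ntrk2*, *Maf*, *Ret*, *Gfra2*) exceeded a nociceptor list (*Scn10a*, *Calca*, *Tac1* and others), and all 18 had *S100b* UMIs, with 290.2 CPM pooled. In the other 17 wells 4 had a UMI and the pooled level was 22.0 CPM. At p1 the 7 other sensory neuron-like wells, from 3 libraries, held 171 to 3025 CPM of *S100b*. In 6 of these 7 wells the mechanoreceptor list was the larger.

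Within the proprioceptor-like wells of e15.5 *S100b* rested on very few cells. Only 5 of 270 wells (1.85%), in libraries S7, S9 and S10, reached 100 CPM, at 170 to 558 CPM. In the remaining 265 the pooled level was 3.79 CPM. The 5 wells had a median of 412 CPM of the mechanoreceptor list and 5.58 CPM of *Pvalb*, against 16.2 and 449 in the others. These wells were set apart by their *S100b* level, so the values are a description. At p1, 179 of 232 wells (77.2%) reached 100 CPM, from 58.7% of wells in S1 to 100% of the 5 wells in S3, and 25 wells, in 3 libraries, reached 1000 CPM. The p1 wells at or above 100 CPM had 125 CPM of the mechanoreceptor list and 699.8 of *Pvalb* (medians), beside the 113 and 758 of those below. In the 25 wells at or above 1000 CPM these medians were 182 and 481 CPM. Connective tissue-like wells also held a median of 379 CPM of this list, so it does not mark mechanoreceptors alone in these libraries. Summed over all proprioceptor-like wells of a library, the mechanoreceptor list stood at 10.8 to 67.2 CPM at e15.5 and 139.9 to 222 at p1. All 4 of its genes had UMIs at both ages, but only 1 at e15.5 and 2 at p1 were found in at least 0.5 of these wells. The median of the list over wells was 16.6 CPM at e15.5 and 120 at p1. The part of mechanoreceptor-like cells in the rise of *S100b* was not tested.

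**Figure D2:**
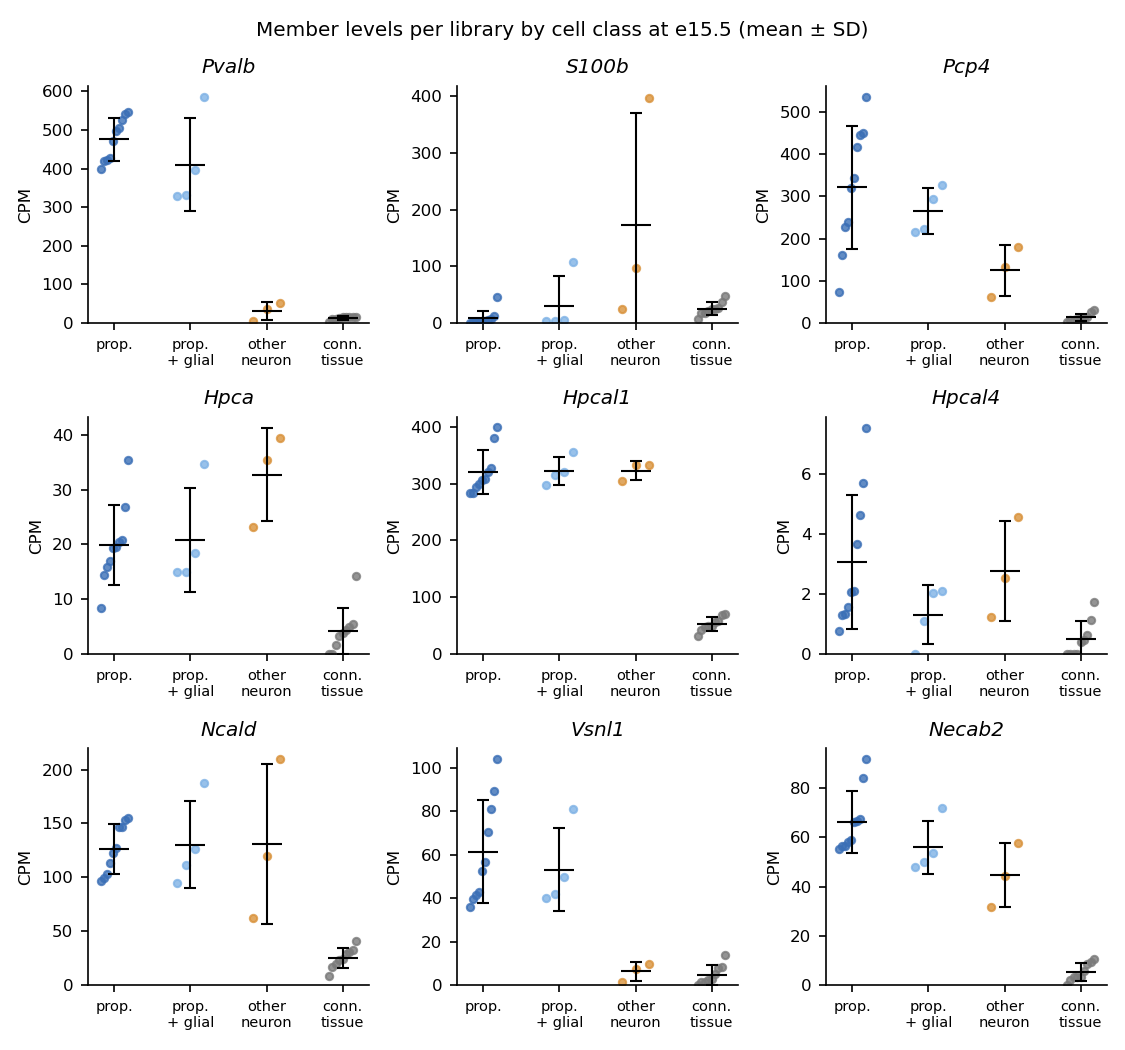
Level of each gene in CPM (vertical axis, from 0) by cell class at e15.5, 1 point per library with at least 5 wells, with black bars for mean ± SD. From left to right the classes are proprioceptor-like (10 libraries), the same with glial transcripts (4), other sensory neuron-like (3) and connective tissue-like (9). *Vsnl1* separates proprioceptor-like from other neurons, *Hpcal1* does not, and *S100b* reaches its highest value (397 CPM) in other neurons.

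**Figure D3:**
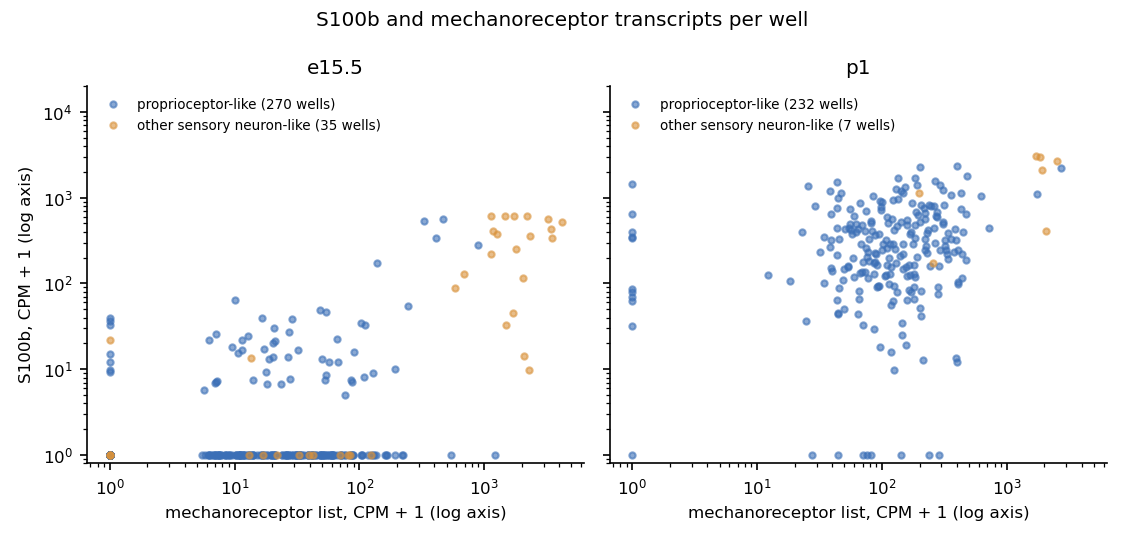
*S100b* against the summed mechanoreceptor list, 1 point per well, both in CPM + 1 on log axes, at e15.5 (left) and p1 (right), for proprioceptor-like and other sensory neuron-like wells. At e15.5 the few proprioceptor-like wells over 100 CPM of *S100b* lie at high mechanoreceptor levels, and at p1 most wells of the class lie over 100 CPM.

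Of the 22 tested genes of the wider list, 14 were higher and 7 lower against connective tissue-like wells, where 36.7% and 42.0% of all genes were, and 4 were higher and 6 lower against other sensory neuron-like wells, where 6.93% and 6.15% were. *Kcnip2*, a sensor that binds Kv4 potassium channels, stood out on both sides, with log2 fold changes of 5.28 (SE 0.17, edgeR adjusted p = 1.13e-16) and 5.51 (SE 0.33, edgeR adjusted p = 6.65e-10). The buffer gene *Calb1* (calbindin) was higher by 4.99 and 1.58, and *Cabp7* by 3.46 and 5.87. Lower against other sensory neuron-like wells were *S100a6* (-5.36), *Caln1* (-2.59), *Kcnip1* (-2.05), *Necab1* (-1.97), *S100a11* (-1.44) and *Gap43* (-0.88), a calmodulin-binding growth cone protein. Lower against connective tissue-like wells were 5 of 6 S100 genes tested, among them *S100a16* (-7.23), *S100a4* (-6.97), *S100a6* (-5.50) and *S100a13* (-3.75), and *Nrgn* (-6.32). *S100a16* and *S100a4* stood at 0.0310 CPM each in proprioceptor-like wells, so the size of these differences rests on the prior count of the fit.

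*S100b* is also a gene of glia, so proprioceptor-like wells with glial transcripts were compared with those without. No member passed the test at either age in the main setting. Summed per library, the glial list stood at 939 to 2397 CPM in wells with and at 7.59 to 19.7 in wells without at e15.5, and at 552 to 1188 and 0 to 49.9 at p1. *S100b* was 189, 396 and 694 CPM (lowest, median and highest of 5 libraries) in wells with glial transcripts at p1, and 182 to 693 in wells without. The part of glial transcripts in the *S100b* level was not tested further. The log2 difference was 0.07 with a 95% interval of -0.15 to 0.29 (edgeR adjusted p = 0.923). At e15.5 it was 1.08 with an interval from -0.91 to 3.06 (edgeR adjusted p = 0.711), too wide to read. There 3 of the 4 libraries held 3.34 to 4.96 CPM, and S5 held 108 in 6 wells. In edgeR 0 of 7 members were called at e15.5 (1 had an unadjusted p below 0.05) where 5.42% of genes were (5.32% higher, 0.0989% lower), and 0 of 8 at p1 (0 with an unadjusted p below 0.05) where 3.13% were (3.0% higher, 0.133% lower). DESeq2 called 0 at both ages. With no filter on low counts *S100b* and *Pcp4* did pass at e15.5 (edgeR adjusted p of 0.00776 and 0.0469). Without library S9, *Pcp4* was lower in wells with glial transcripts at e15.5 (log2 difference -0.72, edgeR adjusted p = 0.0162, against -0.44 and 0.236 with it). The difference between ages was called for 0 members (0 with an unadjusted p below 0.05) and for 0.22% of genes (0.071% higher, 0.148% lower at p1). With no filter on low counts *S100b* was called there (edgeR adjusted p = 0.032), so its result depends on this setting. Other S100 genes did differ: *S100a16* was higher in wells with glial transcripts by 5.18 at e15.5 and 5.54 at p1 (edgeR adjusted p of 1.50e-05 and 0.00100), and *S100a6* by 3.44 at e15.5 (edgeR adjusted p = 9.68e-05).

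Variation among the proprioceptor-like wells of a library was then set against *Pvalb*. Pearson's r was taken over wells, on log2(UMIs per 10000 + 1), within each library that had at least 10 such wells. Wells of a library share its preparation and differ in depth, so r is a description. At e15.5 (8 libraries, 257 wells) *Vsnl1* stood out, with a median r of 0.37. Its r was above 0 in 6 libraries, from -0.16 in S8 to 0.63 in S1. The median gives each library the same weight, and r was 0.39 to 0.63 in the libraries of 10 to 22 wells. In the larger ones it was 0.35 in S10 (65 wells), 0.08 in S9 (51), -0.07 in S5 (38) and -0.16 in S8 (35). The medians of the other members lay between -0.10 (*Hpcal4*) and 0.14 (*Hpcal1*). Over 10413 genes with a UMI in at least 0.5 of wells the median was -0.03, and *Vsnl1* was above 99.7% of them. Its median Spearman's rho was 0.35, its partial r given depth 0.36 and its r in wells thinned to 10000 UMIs 0.11.

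At p1 (5 libraries, 227 wells) *Pcp4* followed *Pvalb* most closely, with r of 0.64 in S1, 0.56 in S2, 0.65 in S4, 0.67 in S5 and 0.70 in S6. All 5 libraries lay in this narrow range, with no correction for depth. Median r was 0.37 for *Vsnl1* (0.20 to 0.56), 0.34 for *Ncald* (-0.24 to 0.68), 0.29 for *Hpcal1*, 0.15 for *Necab2*, 0.12 for *S100b*, 0.06 for *Hpca* and 0.05 for *Hpcal4*. The median over 8574 genes was itself 0.14, and 35.8% of genes were above 0 in all 5 libraries. Against that level *Pcp4* was above 99.6% of genes, *Vsnl1* above 87.0%, *Ncald* above 83.4% and *S100b* above 45.3%. Given the log10 UMI total of a well, the partial r was 0.53 for *Pcp4* (0.48 to 0.62 over libraries) and 0.12 for *Vsnl1*. With wells thinned to 10000 UMIs r was 0.50 for *Pcp4* (0.19 to 0.61, a wider range), 0.14 for *Vsnl1* and -0.02 for *Ncald*. No background over other genes was computed for the partial r or the thinned wells.

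**Figure D4:**
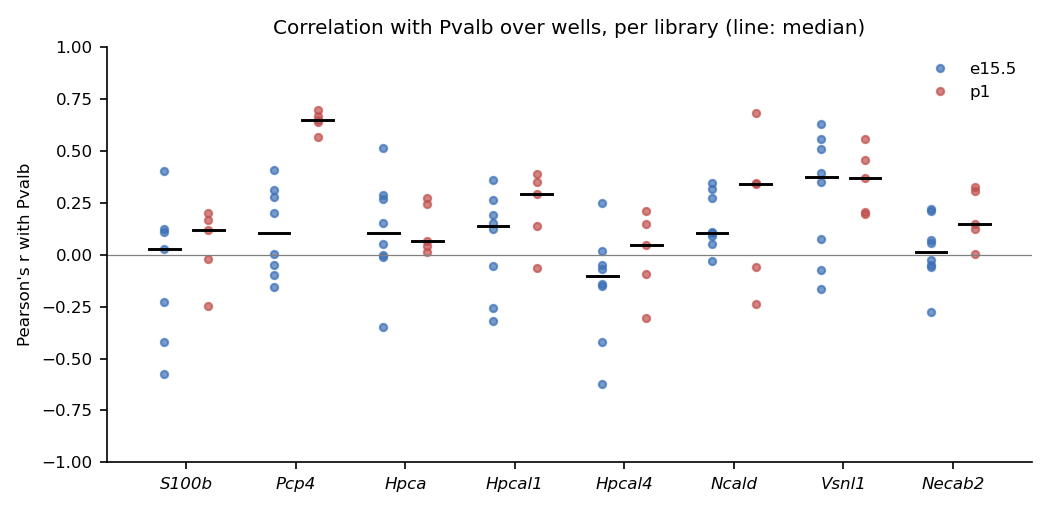
Pearson's r with *Pvalb* over the proprioceptor-like wells of a library (vertical axis, from -1 to 1), 1 point per library at e15.5 (up to 8 libraries) and p1 (5 libraries), with a line at the median. The 5 p1 points of *Pcp4* lie between 0.56 and 0.70, and the points of the other members spread more widely.

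The genes most like *Pvalb* over wells were named by the highest median r. At e15.5 they included *Cox5a* (r 0.53) and *Atp5g3* (0.48) of the respiratory chain and ATP synthase, the mitochondrial ADP/ATP carrier gene *Slc25a4* (0.49) and *Chchd10* (0.49). At p1 they were *Eef1a2* (elongation factor, 0.78), the predicted gene *Gm8797* (0.76), *Fxyd7* (a regulator of the sodium pump, 0.76), *Aldoa* (aldolase, 0.74) and *Sncg* (gamma-synuclein, 0.72). These 4 genes of e15.5 had median r of 0.61 to 0.70 at p1, and the 5 of p1 had 0.14 to 0.43 at e15.5.

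To compare groups over libraries, the wells of each library with at least 15 were ranked by *Pvalb* CPM and split into 3 equal parts, and the top and bottom parts were summed. *Pvalb* made the split: 595 to 876 CPM in *Pvalb*-high and 168 to 388 in *Pvalb*-low sums at e15.5 (7 libraries), and 914 to 1272 against 319.99 to 671 at p1 (5 libraries). No other member was called at e15.5, and *Pcp4* alone at p1, higher in *Pvalb*-high wells. *Pcp4* rose from 1549 to 2021 CPM in S1, from 541 to 1239 in S2, from 920 to 2007 in S4, from 524 to 1405 in S5 and from 1047 to 1870 in S6. All 5 libraries moved the same way, with a log2 fold change of 0.80 (SE 0.14, edgeR adjusted p = 6.81e-04). The fit called 18.9% of 11423 genes at p1 (8.04% higher, 10.8% lower). *S100b* did not pass (log2 fold change -0.42, 95% interval -0.76 to -0.08, edgeR adjusted p = 0.0970), and neither did *Vsnl1* (0.19, -0.08 to 0.47, edgeR adjusted p = 0.367), *Ncald*, *Hpcal1* or *Necab2*.

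The *Pvalb*-high wells of p1 were deeper in 5 of 5 libraries (median of library medians 110174 UMIs, against 30483.5) and had a lower mitochondrial share in 5 of 5 (7.65% against 11.5%). The glial list was lower in 4 of 5, with a median of 16.1 CPM against 49.3. The part of these in the *Pcp4* difference was not tested beyond the settings that follow. When wells were first thinned to 10000 UMIs and then ranked, the *Pcp4* difference was 0.36 at an adjusted p of 0.255. With the ranking kept and the counts thinned it was 0.80 (adjusted p = 2.45e-04), and *S100b* was then also called, at -0.64 (adjusted p = 0.0147). Without the library block the *Pcp4* difference was 0.72 at an adjusted p of 0.106.

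At e15.5 the same fit called 0.804% of 11569 genes (0.424% higher, 0.38% lower) and 0 of 7 members, 2 of which had an unadjusted p below 0.05, and DESeq2 called 0. *Ncald* (log2 fold change 0.31, 95% interval 0.09 to 0.52, edgeR adjusted p = 0.248) and *Pcp4* (0.30, 0.03 to 0.56, edgeR adjusted p = 0.399) came nearest. *S100b* had the largest difference, -1.35 (SE 0.83, edgeR adjusted p = 0.570), although it was higher in *Pvalb*-high wells in 5 of 7 libraries. In S10 it was 130 CPM in *Pvalb*-low and 2.75 in *Pvalb*-high wells. Leaving out 1 library moved the difference between -2.61 and 0.91. With no filter on low counts it was called (edgeR adjusted p = 5.45e-04). *Vsnl1* was higher in *Pvalb*-high wells in 5 of 7 libraries (0.48, -0.01 to 0.97, edgeR adjusted p = 0.465). *Pvalb*-high wells were the deeper in 4 of 7 libraries, and S7 and S8 stood apart. There *Pvalb*-high wells had median depths of 45048 and 21751 UMIs, against 141215 and 135839 in *Pvalb*-low wells, and median mitochondrial shares of 0.955% and 0.640%, against 4.30% and 5.10%. In the other 5 libraries these shares lay between 4.62% and 6.17% in both parts. Without S7 or without S8 the count of members called was again 0. The change in the *Pcp4* difference between ages was 0.50 (SE 0.21, edgeR adjusted p = 0.164), so the relation was not shown to differ between e15.5 and p1. On thinned counts that change was 0.85, at an adjusted p of 0.00915, so the call depends on this setting. By that test 7.17% of genes (3.09% higher, 4.08% lower) and 0 members were called (2 with an unadjusted p below 0.05, 0 by DESeq2).

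**Figure D5:**
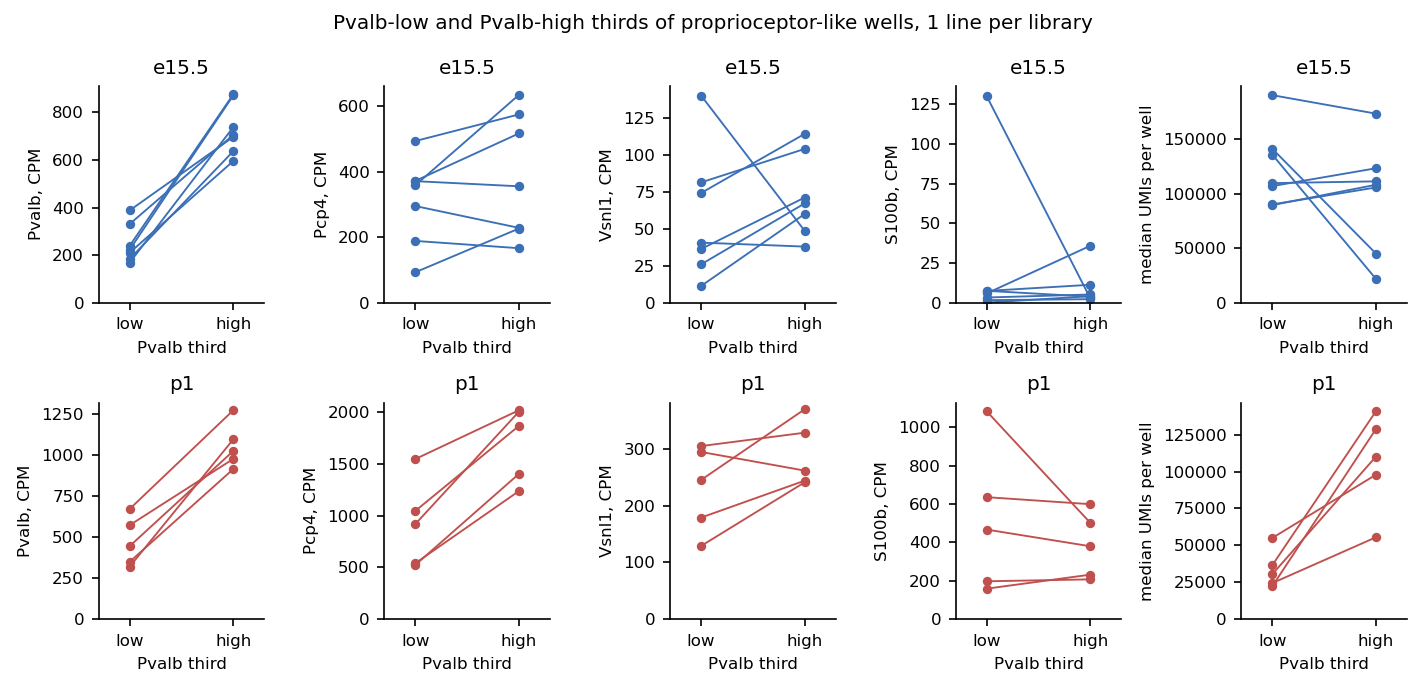
Sums over the *Pvalb*-low and *Pvalb*-high parts of the proprioceptor-like wells of each library, joined by 1 line per library, for *Pvalb*, *Pcp4*, *Vsnl1* and *S100b* in CPM and for the median UMIs per well, at e15.5 (top, 7 libraries) and p1 (bottom, 5 libraries), with vertical axes from 0. At p1 *Pcp4* and depth both rise in all 5 libraries.

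In the wider list, *Pvalb*-high wells of e15.5 had more *Calm2* (log2 fold change 0.26, edgeR adjusted p = 0.0435) and less *Necab1* (-1.83, edgeR adjusted p = 0.0171), *Calb1* (-1.62, edgeR adjusted p = 0.00559) and *Caln1* (-1.15, edgeR adjusted p = 0.0168). At p1 *Kcnip2* (1.32, edgeR adjusted p = 6.68e-04) and *S100a10* (0.42, edgeR adjusted p = 0.0382) were higher and *S100a6* (-3.03, edgeR adjusted p = 1.93e-04) and *Kcnip4* (-1.36, edgeR adjusted p = 0.00252) lower. For *Calb1* and *Kcnip2* the difference itself was not the same in the 2 sets of libraries, p1 minus e15.5 being 1.94 (SE 0.43, edgeR adjusted p = 0.00867) and 0.99 (SE 0.27, edgeR adjusted p = 0.0264). Age cannot be told apart here from mouse line and way of collection. With ranks from thinned wells the calls of that test over all genes went from 908 to 21, and those at p1 from 2154 to 49. The *Pvalb*-high wells of p1 were deeper in 5 of 5 libraries, with a median of library medians of 110174 UMIs against 30483.5. Their glial list was the higher in only 1 of 5, and *S100a6* was higher in wells with glial transcripts at e15.5. The part of depth and glial transcripts in the p1 differences of *Kcnip2*, *S100a10*, *S100a6* and *Kcnip4* was not tested. Of the list's tested genes, 2 were higher and 3 lower of 16 at e15.5 (0.424% and 0.38% over all genes), and 2 higher and 2 lower of 17 at p1 (8.04% and 10.8% over all genes).

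Pairs of members were described in the same way. At e15.5 *Pcp4* and *Hpcal1* went together in 8 of 8 libraries (median r 0.37, 0.21 to 0.68), and *Pcp4* and *Ncald* went apart in 7 of 8 (median r -0.40, -0.58 to 0.26). At p1 the median r of these pairs was 0.33 and 0.21. *Pcp4* and *Vsnl1* had r above 0 in 5 of 5 p1 libraries (0.25), as did *Pcp4* and *Necab2* (0.14) and *Hpcal1* and *Necab2* (0.14). With *Pvalb*, the median r over genes at p1 was 0.14, and 35.8% of genes were above 0 in all 5 libraries. The pairs have no correction for depth. Members were also set against *Gabrg1*, a GABA-A receptor subunit gene and one of the study's markers of hindlimb-innervating neurons. At e15.5 its r was below 0 in 7 of 7 libraries with *Pcp4* (median -0.48) and with *Hpcal1* (-0.35), and above 0 in 6 of 7 with *Ncald* (0.27). *Tox*, a nuclear protein gene and a marker of back-innervating neurons there, had r above 0 with *Hpcal1* in 8 of 8 (median 0.24). At p1 *Gabrg1* had a median r of 0.05 with *Pcp4* (above 0 in 3 of 5 libraries). With *Hpcal1* it had -0.10 (above 0 in 2 of 5). *Tox* with *Hpcal1* again had a median of 0.24, above 0 in 3 of 5. *Gabrg1* had r above 0 in 5 of 5 p1 libraries with *S100b* (median 0.24), *Hpca* (0.18) and *Ncald* (0.16). The sign with *Ncald* was thus the same as in 6 of 7 libraries at e15.5. Most p1 cells came from Trpv1Cre; PvFlp; Ai65 mice, in whose labelled neurons the paper did not find *Gabrg1*. No label ties a library to these mice. The 2 ages thus hold unlike sets of cells, and a change with age cannot be read from these values. No background over other genes was computed for *Gabrg1*, for *Tox* or for the pairs of members in this paragraph. These are correlations over wells within libraries, described with no test.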

How the data were processed

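Single cells from dorsal root ganglia at e15.5 and p1 were sequenced by CEL-Seq2, which counts the 3′ ends of transcripts. Per the study's methods, scruff was used to demultiplex, map and count. The authors deposited raw counts, whole UMIs per gene and well, in 1 table per age. The submitters' processing notes name the builds mm10 and GRCm38. Rows without a gene symbol held 0.0617% of UMIs. Library totals ran from 3701900 to 9299431 UMIs at e15.5 and from 386517 to 8814472 at p1. Plate barcodes recur in every library, 0 wells were identical, and the least different pair of libraries had a chi-square of 2.29 per degree of freedom at e15.5 and 1.99 at p1. Intervals of fold changes come from sums per library and cover the spread between libraries, whereas pooled shares of wells are given without that spread.

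The members and gene lists were chosen with earlier results of these data known. Wells under 10000 UMIs were left out, and classes came from marker sums in CPM. No doublet caller was run. UMIs were summed per library and class over at least 5 wells, filtered with filterByExpr, scaled by TMM and tested with edgeR 4.0.16 (quasi-likelihood, R 4.3.3) with Benjamini-Hochberg adjustment over all tested genes at 0.05. Comparisons within libraries had the library as a block. In simulated data for the comparison of ages (12576 genes) 80.5% of 2-fold and 98.0% of 4-fold changes were recovered, and for other sensory neuron-like wells (14149 genes) 27.0% and 71.5%. All 9 members are named, as are up to 10 called genes of a wider calcium-binding list per comparison by absolute log2 fold change, and the 5 genes most like *Pvalb* at each age. Alternatives were DESeq2 1.42.0, RLE factors, no filter on low counts, thinning, the study's quantile filters (0.3 and 0.75), at least 10 wells per sum, glial limits of 150 and 600 CPM, classes from clusters, leaving out each library and, added after seeing the data, no sensory neuron limit. Promoter windows came from RefSeq (GRCm38.p6), and gene places from the GENCODE annotation of GRCm38. Values of 1 gene that these rules select are not reported here.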

Additional observations from a re-analysis of the deposited data

Results flagged for a closer look

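In each group of 4 to 10 libraries the highest and the lowest library were set against the others by the gap to the nearest, as a share of the group's range (Dixon's ratio). Of 45 groups 4 passed the 95% critical value, where chance gives about 1 in 20.

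*S100b* in proprioceptor-like wells of e15.5 was 45.0 CPM in library S10 (65 wells), with the next library at 12.4 (ratio 0.725, critical value 0.466). *S100b* in e15.5 proprioceptor-like wells with glial transcripts was 108.0 CPM in library S5 (6 wells), with the next of the 4 libraries at 4.96 (ratio 0.985, critical value 0.829). *Pvalb* in connective tissue-like wells was 3.27 CPM in library S3 (43 wells), the lowest, with the next at 10.3 (ratio 0.522, critical value 0.493). *Hpca* in connective tissue-like wells was 14.2 CPM in library S7 (61 wells), with the next at 5.55 (ratio 0.608, critical value 0.493).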

How the results depend on the processing

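Between the ages 7 members were called, 6 to 7 under 12 alternatives and 7 without any 1 of the 16 libraries. With S numbers shared by the ages as a replicate block 7 were called as well, but the numbers did not pair the libraries: same-numbered libraries had correlations of -0.37 to 0.20 in their deviations, and in 0 of 6 was the own number best. Against connective tissue-like wells 7 members were called (6 to 8). Against other sensory neuron-like wells 3 were called, 1 under the quantile filters, 5 with classes from clusters and 2 to 3 without 1 library. For glial transcripts at e15.5 the count was 0, 2 with no filter on low counts (*S100b* and *Pcp4*) and 0 to 1 without 1 library. Their difference between ages gave 0, or 1 with no filter (*S100b*). For *Pvalb*-high wells of e15.5 the count was 0, or 3 with no filter (*S100b*, *Pcp4* and *Vsnl1*). At p1 it was 1, or 2 on thinned counts, 0 without the replicate block and 0 with ranks from thinned wells. The difference between ages gave 0, or 2 with no filter, 2 on thinned counts and 1 with at least 10 wells per sum. *S100b* was among these calls, with a lowest edgeR adjusted p of 5.31e-05. No direction of a called value reversed. The causes were not tested. Median r of *Pcp4* at p1 was 0.65, 0.50 on thinned wells and 0.53 given depth. The share of wells with an *S100b* UMI was 21.5% at e15.5 and 96.1% at p1, and 3.70% and 79.7% after thinning, so low members are limited by depth.

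Counts over all genes moved more. Thinning took 7722 genes to 3227 between ages, 11125 to 6077 against connective tissue-like wells, 1851 to 461 against other sensory neuron-like wells, 767 to 248 and 447 to 100 for glial transcripts at e15.5 and p1, 93 to 13 and 2154 to 1057 for *Pvalb*-high wells, and 908 to 264 for their difference between ages. Against other sensory neuron-like wells the quantile filters gave 518, clusters 3103, and leaving out S1 or S3 gave 1081 or 1160. At least 10 wells left only library S1 in that class, so no count is given. For glial transcripts at e15.5 no filter gave 1161 and the quantile filters 508. At least 10 wells left only library S9 among the e15.5 wells with glial transcripts, so no count is given. At p1 no replicate block gave 197 and leaving out S1 254. For glial transcripts the difference between ages, 34 genes, became 179 with no filter, 8 on thinned counts, 22 under the quantile filters and 92 with clusters. For *Pvalb*-high wells of e15.5 no filter gave 378, the quantile filters 52, at least 10 wells 28, no replicate block 1, a split at the median 35, and leaving out S1, S10 or S7 gave 50, 43 or 59. At p1 DESeq2 gave 1395, no replicate block 359, ranks from thinned wells 49 and leaving out S6 1205. The difference between ages became 288 with at least 10 wells, 55 without the block and 21 with ranks from thinned wells.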
